A study of Spirodela polyrhiza with 13 samples.

Results

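The genes described here are those of the greater duckweed, Spirodela polyrhiza, whose mean transcript level was lower at each successive stage of frond development. They were chosen by their measured stage means: a mean of at least 10 FPKM at stage 2 and a drop of at least 0.3 in log2(mean FPKM + 1) at each of the 4 steps from stage 2 to stage 6. The drop had to stay under 0.8 from stage 2 to 3 and under 1.5 from stage 4 to 5. The largest single step held between 26.3% and 50.7% of a gene's total drop on this scale. FPKM is the number of fragments on a gene per kilobase of its length and per 1000000 fragments on all genes. The rule found 67 of 19623 listed gene IDs, 0.341%, or 0.591% of the 11341 tested genes with at least 10 FPKM at stage 2. All 67 passed the filter on low values, which asked for 1 FPKM in at least 2 libraries and left 15608 genes for testing.

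A frond is the flat, leaf-like body of a duckweed, and new fronds bud from pockets at the base of an older one. As a frond grows, its young tissue passes from cell division to expansion, and gas-filled spaces, the aerenchyma, open within it and keep it afloat. A slow decline over all stages differs from a switch at one of them, and transcript levels along such a course can show either. Messenger RNA was sequenced from frond tissue of wild-type plants, untreated in every group, with 3 libraries each at stages 2, 3 and 4 and 2 each at stages 5 and 6. The labels number the stages without an age or a time between them, and it is not said if the replicates are separate plants, so the errors below cover what varied from library to library, possibly technical alone. Library totals ran from 7708200 to 10910370 reads on genes, as recovered from the FPKM values. Gene IDs in the deposited table come without names or products, so no role can be given to any of the 67 genes, and they are ordered here by level and by the shape of their decline. The identity of the tissue could not be checked against marker genes for the same reason. In bulk tissue, fewer cells that hold a transcript and less of it per cell cannot be told apart.

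Together the 67 genes took up a shrinking share of the library. They held 4687, 5282 and 5098 reads per 1000000 at stage 2, 3717, 3598 and 3564 at stage 3, and 2979.8, 2792 and 2506 at stage 4. At stage 5 they held 1746 and 1881 reads per 1000000, and at stage 6 they held 1088 and 1439.7. No library of a stage overlapped with one of the next stage, an order that the choice of genes sets. Without the 2 most abundant genes the sum still went from 3721 to 4256 reads per 1000000 at stage 2 down to 869 and 1117 at stage 6. Mean levels at stage 2 lay between 10.1 and 958 FPKM with a median of 52.5, and 13 genes were at 100 FPKM or more. At stage 6 the means lay between 1.67 and 274 FPKM with a median of 12.7, and 27 genes were below 10 FPKM. From 8.17% to 37.2% of the stage 2 mean was left at stage 6, with a median of 25.6%, and the loss was at least 4-fold for 28 genes. Means first lay below 50% of the stage 2 mean at stage 4 for 16 genes and at stage 5 for the other 51.

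**Figure D1:**
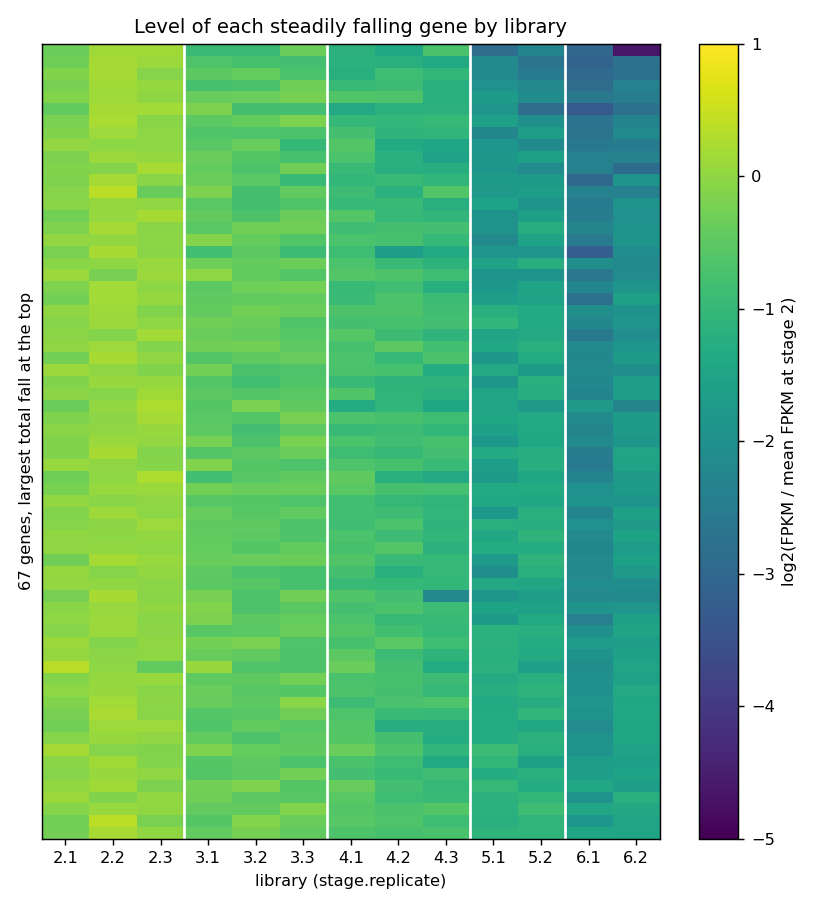
Level of each of the 67 genes (rows, largest total fall at the top) in each of the 13 libraries (columns, stage and replicate), as log2 of FPKM over the gene's mean at stage 2. Colours darken from one stage to the next in most rows, and the library of stage 6 replicate 1 is darker than stage 6 replicate 2 for most genes.

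The most abundant gene was Spipo12G0000300, with a coding length of 744 bases as implied by its values. It was at 955, 941 and 978 FPKM at stage 2, 704, 675 and 614 at stage 3, 589, 517 and 463 at stage 4, 356 and 445 at stage 5, and 214 and 334 at stage 6. The libraries of consecutive stages did not overlap, although the stage 6 libraries lay far apart. The mean went from 958 ± 18.6 FPKM (SD, n = 3) to 274 ± 84.6 (SD, n = 2), a 3.50-fold loss.

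Spipo3G0072600 (381 bases) came next in level. Its values were 669.9, 855 and 718 FPKM at stage 2, 513, 606 and 610.4 at stage 3, 416, 441 and 434 at stage 4, 198 and 311 at stage 5, and 155 and 196 at stage 6. Both stage 5 libraries lay below all stage 4 libraries, and the loss from 748 ± 96.2 (SD, n = 3) to 175 ± 28.5 FPKM (SD, n = 2) was 4.26-fold.

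Spipo2G0017600 (246 bases) lost the smallest share among the 67 genes, with 37.2% left at stage 6. It was at 187, 210.5 and 202 FPKM at stage 2, 147, 147 and 181 at stage 3, 130.4, 122 and 132 at stage 4, 89.1 and 109.8 at stage 5, and 72.1 and 76.9 at stage 6. Again no libraries of consecutive stages overlapped. Its smallest drop, 0.302 from stage 3 to 4, sat just inside the rule.

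Some genes lost far more. Spipo4G0078900 (1083 bases) was at 183, 228 and 188 FPKM at stage 2, 140.0, 149.7 and 124 at stage 3, 85.4, 109 and 97.3 at stage 4, 44.9 and 35.2 at stage 5, and 25.8 and 29.1 at stage 6. The stages were fully separated, and the widest gap lay between stages 4 and 5. The loss from 199.9 ± 24.5 (SD, n = 3) to 27.5 ± 2.32 FPKM (SD, n = 2) was 7.28-fold.

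Spipo15G0046400 (1434 bases) resembled it. Values were 119, 169 and 159 FPKM at stage 2, 95.1, 89.1 and 86.0 at stage 3, 66.6, 63.6 and 58.4 at stage 4, 33.3 and 23.2 at stage 5, and 17.6 and 22 at stage 6. No libraries of consecutive stages overlapped, and 13.3% of the stage 2 mean was left at stage 6, a 7.52-fold loss.

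The gene with the largest loss, Spipo15G0006400 (336 bases), rested on few reads at the late stages, and its lowest library held 3. Its values were 19.7, 27.5 and 27.8 FPKM at stage 2, 13.4, 13.2 and 19.8 at stage 3, 11.4, 9.30 and 15.1 at stage 4, 3.47 and 5.09 at stage 5, and 3.08 and 1.00 at stage 6. Libraries overlapped between stages 2 and 3 and between stages 3 and 4, and were apart at the later steps. The ratio of means was 12.2, from 250 reads over 3 libraries (95% exact Poisson interval 220.0 to 283, for counting error alone) to 11 reads over 2 libraries (5.49 to 19.7). Its change from stage 2 to stage 6 was -3.10 in log2(mean FPKM + 1), or -2.67 without stage 6 replicate 2 and -3.70 without stage 6 replicate 1. Only this gene and Spipo0G0130300 had a library with fewer than 10 reads, and the median of the lowest read number per gene was 75.

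Spipo19G0005500 and Spipo26G0015900 were named for their total change in log2(mean FPKM + 1), -2.47 and -2.44. The first (2019 bases) went from 65.5 ± 8.62 FPKM (SD, n = 3) at stage 2 through means of 43.8, 32.6 and 15.7 to 11.0 ± 2.67 (SD, n = 2), a 5.96-fold loss. The second (2103 bases) went from 64.4 ± 5.79 (SD, n = 3) through 51.0, 36.7 and 17.6 to 11.0 ± 0.612 FPKM (SD, n = 2), a 5.84-fold loss. In both, the libraries of consecutive stages did not overlap.

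**Figure D2:**
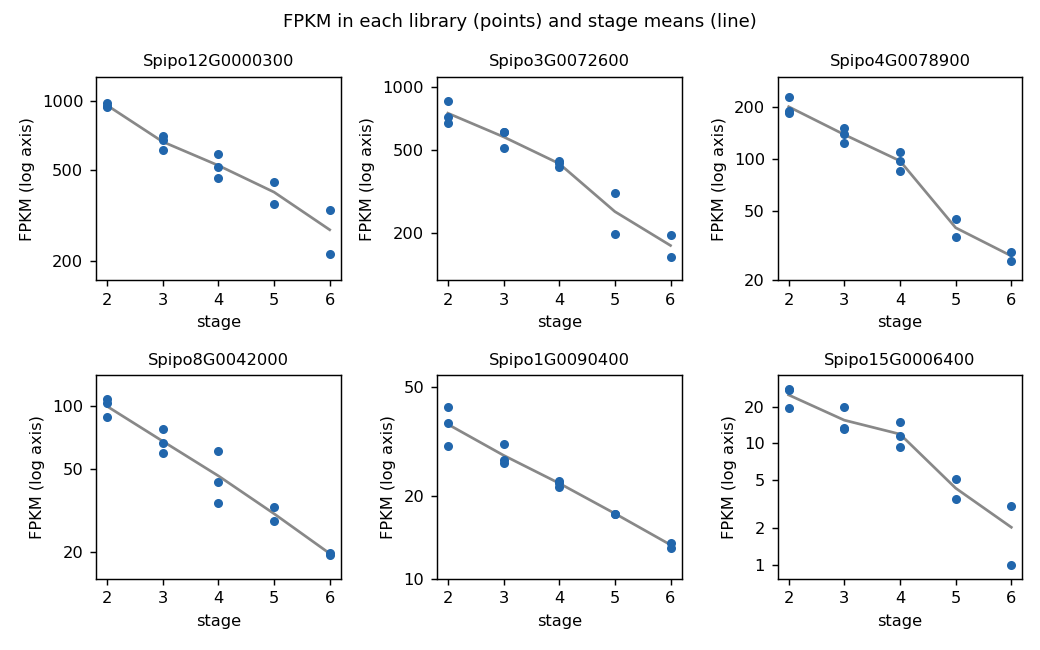
FPKM of 6 steadily falling genes in each library (points, log axis) and their stage means (line) at stages 2 to 6. Spipo8G0042000 and Spipo1G0090400 follow nearly straight lines, while Spipo4G0078900 and Spipo15G0006400 bend down between stages 4 and 5.

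How even the decline was differed from gene to gene. The difference between the largest and the smallest of the 4 drops had a median of 0.26, from 0.04 to 0.94. It was within 0.1 for 3 genes, Spipo1G0090400, Spipo8G0042000 and Spipo0G0010500, and within 0.2 for 15.

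Spipo1G0090400 (1512 bases) had the most even decline, with changes of -0.37, -0.32, -0.35 and -0.35 in log2(mean FPKM + 1). It was at 30.5, 42.4 and 36.9 FPKM at stage 2, 27.0, 31.0 and 26.5 at stage 3, 22.8, 21.7 and 22.3 at stage 4, 17.2 and 17.3 at stage 5, and 13.5 and 13 at stage 6. Libraries overlapped between stages 2 and 3 and at no later step.

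Spipo8G0042000 (627 bases) combined an even decline with the largest smallest drop, 0.540. Its changes were -0.55, -0.54, -0.58 and -0.61, and its values were 87.9, 107 and 103 FPKM at stage 2, 76.9, 66.6 and 59.4 at stage 3, 61.0, 43.3 and 34.3 at stage 4, 28.3 and 32.7 at stage 5, and 19.4 and 19.9 at stage 6. The stage 4 libraries spread widely and overlapped with stage 3. At stage 6, 19.8% of the stage 2 mean was left.

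In Spipo0G0010500 (417 bases) the means were as evenly spaced but the libraries were not. Stage 2 held 53.4, 57.6 and 46.6 FPKM, stage 3 held 44.1, 47.2 and 34.8, stage 4 held 40.0, 30.2 and 26.1, stage 5 held 26.1 and 21.6, and stage 6 held 19.6 and 16.7. The last step was the only one without overlap. Spipo9G0053600 (1305 bases), even as well, showed no overlap at any step, with means of 27.2, 20.4, 15.8, 11.3 and 8.04 FPKM. One gene, Spipo1G0079800 (387 bases, named after its values were seen), overlapped at all 4 steps, with 40.2, 30.9 and 23.2 FPKM at stage 2 and 7.69 and 11.1 at stage 6.

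Genes with low levels also met the rule. Spipo18G0010300 (1422 bases) went from 13.4 ± 2.98 FPKM (SD, n = 3) at stage 2 to 1.67 ± 0.434 (SD, n = 2) at stage 6, a 7.99-fold loss from 566 to 40 reads. Spipo0G0130300 (606 bases) went from 11.8 ± 1.76 to 2.03 ± 1.06 FPKM, from 210 to 21 reads. For Spipo18G0000800 (1440 bases) the libraries were fully separated in spite of the low level, with 14.2, 14.4 and 18.2 FPKM at stage 2, 11.6, 9.76 and 12.6 at stage 3, 8.19, 6.59 and 6.52 at stage 4, 4.32 and 3.64 at stage 5, and 2.97 and 2.11 at stage 6. Spipo1G0074500 (933 bases) was also separated at every step, from 40.2 ± 5.05 to 8.00 ± 4.05 FPKM, and its stage 6 libraries stood at 5.13 and 10.9.

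The 4 steps were not alike across the 67 genes. Median changes were -0.45, -0.37, -0.53 and -0.46 from stage 2 onward, against -0.01, -0.09, -0.20 and -0.10 for the 11341 genes with at least 10 FPKM at stage 2. The rule put each of the 67 genes at -0.3 or lower at every step, so lying below these medians was set in advance. The largest drop lay between stages 4 and 5 for 34 genes, between stages 2 and 3 for 16, between stages 5 and 6 for 14, and between stages 3 and 4 for 3, namely Spipo17G0036000, Spipo19G0005400 and Spipo12G0064300 (named after their values were seen). The smallest drop lay between stages 3 and 4 for 39 genes. Spipo17G0036000 (531 bases) was at 21.3, 27.3 and 23.1 FPKM at stage 3 and 12.8, 15.4 and 11.7 at stage 4, a change of -0.80, with smaller changes of -0.39, -0.33 and -0.35 at the other steps.

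The step from stage 3 to stage 4 set most of the boundary of this group. Among genes with at least 10 FPKM at stage 2, a drop of at least 0.3 was seen for 1971 (17.4%) from stage 2 to 3, 1391 (12.3%) from stage 3 to 4, 4733 (41.7%) from stage 4 to 5 and 3143 (27.7%) from stage 5 to 6. Another 835 genes passed at 3 steps and missed the fourth, and for 543 of them (65%) the step missed was stage 3 to 4. Means were lower at every step by any amount for 2961 genes (26.1%), by at least 0.2 for 423, by at least 0.3 for 69 and by at least 0.4 for 10. The limits on single steps kept out 2 genes, Spipo12G0045900 and Spipo8G0010500, with changes of -0.89 and -0.82 from stage 2 to 3. Just inside the rule were Spipo3G0073800, Spipo2G0017600 and Spipo23G0010400, with smallest drops of 0.301, 0.302 and 0.302. Just outside were Spipo4G0098700, Spipo13G0005600 and Spipo0G0040000, each at 0.30 after rounding, so the threshold parts genes that hardly differ.

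Genes that dropped from stage 2 to stage 6 without such regularity served for comparison. There were 2008 tested genes with at least 10 FPKM at stage 2 and a change of -1.2 or less in log2(mean FPKM + 1) from stage 2 to stage 6 that missed the rule, called unsteady fallers here. Their median total change was -1.49 with 33.7% of the stage 2 mean left, against -1.85 and 25.6% for the 67 genes. The loss was at least 4-fold for 12.9% of them against 41.8% of the 67 genes. Both sets were chosen by these same stage means, so the sizes of their drops describe the choice and are no separate finding. Their median level at stage 2 was 46.9 FPKM and their median coding length 1065 bases, against 52.5 FPKM and 960 bases for the 67 genes and a length of 1035 bases for all 11341. The largest step held a median of 46.7% of the total drop in unsteady fallers and 32.7% in the 67 genes, where the rule caps unevenness. Median changes of the unsteady fallers were -0.35, -0.16, -0.58 and -0.42, so that the medians of both sets lay furthest apart from stage 3 to 4. The most frequent place of the largest drop was the same in both sets, as was that of the smallest. The largest lay between stages 4 and 5 for 55.7% of unsteady fallers and 50.7% of the 67 genes. The smallest lay between stages 3 and 4 for 54.2% and 58.2%. Other places differed: the largest lay between stages 2 and 3 for 15.1% and 23.9%, and between stages 5 and 6 for 27.4% and 20.9%. The smallest lay between stages 2 and 3 for 18.4% and 22.4%, between 4 and 5 for 14.7% and 7.46%, and between 5 and 6 for 12.7% and 11.9%. Means first lay below 50% of the stage 2 mean at stage 4 for 4.58% and 23.9%. Differences between the sets were not tested, since genes are not replicates.

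**Figure D3:**
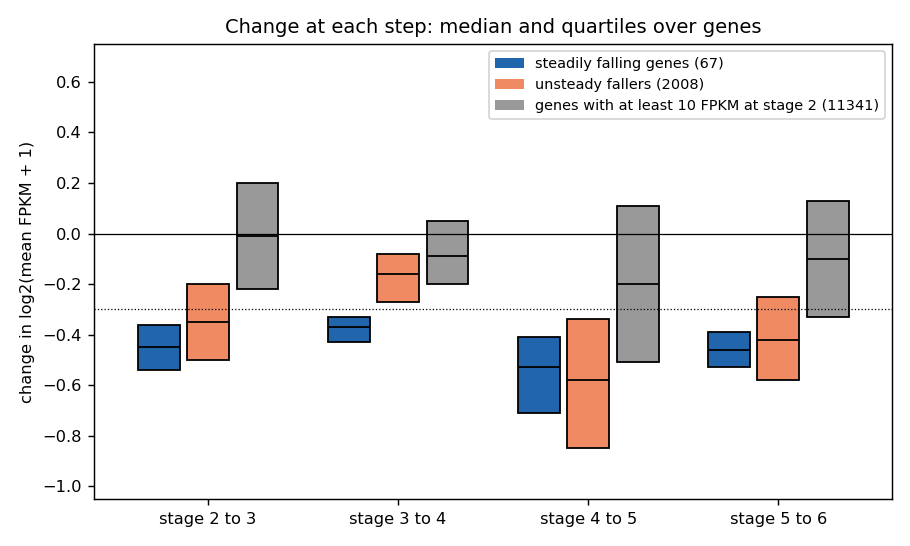
Change in log2(mean FPKM + 1) at each of the 4 steps, as median (line) and quartiles (box) over the 67 steadily falling genes, the 2008 unsteady fallers and the 11341 genes with at least 10 FPKM at stage 2; the dotted line marks -0.3. The steadily falling genes form narrow boxes between -0.33 and -0.71, and from stage 3 to 4 their box lies wholly below that of the unsteady fallers. The rule itself put all 67 genes at or below the dotted line.

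Fewer genes were called at single steps than over the whole course. limma, fitted to log2(FPKM + 1) of all 15608 tested genes with Benjamini-Hochberg adjustment, called 26 of the 67 genes as falling from stage 2 to stage 3, against a background of 6.64% of all genes tested. From stage 3 to 4 it called 4, against 1.10%; these were Spipo17G0036000, Spipo19G0005400, Spipo4G0039100 and Spipo4G0062600. It called 48 from stage 4 to 5, against 30.7%, 13 from stage 5 to 6, against 7.20%, and all 67 from stage 2 to stage 6, against 46.1%. Before adjustment, 55, 48, 54 and 42 of the 67 genes had a limma p under 0.05 at the 4 steps. No share of all genes tested is given at that unadjusted threshold, so these 4 counts have no background. These comparisons are the ones that chose the genes, so the counts describe how large each drop was beside its error and test nothing. The median change of -0.37 from stage 3 to 4 stood beside a median standard error of 0.16, and that of -0.48 from stage 5 to 6 in the fit beside 0.20.

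Counts of calls at single steps changed when 1 library was left out, and the share of all genes called mostly moved the same way. When 1 of the stage 2 libraries was left out, the count from stage 2 to 3 was 16 (replicate 1 out), 6 (replicate 2 out) or 4 (replicate 3 out), while the share of all genes called fell to 3.82%, 2.5% and 1.22%. Dropping replicate 2 of stage 3 left 5 calls at this step, against 1.42% of all genes, and dropping its replicate 3 left 10, against 2.03%. Without stage 3 replicate 1 there were 18 calls, against 6.64%, the same share as with all libraries. From stage 3 to 4 limma called none without stage 3 replicate 2, stage 3 replicate 3 or stage 4 replicate 3. It called 1 without stage 4 replicate 2. In these 4 fits, 0.122%, 0.135%, 0.141% and 0.186% of all genes were called. In the first 3 of them, 34, 33 and 22 of the 67 genes had an unadjusted limma p under 0.05, again without a background share. The stage 4 to 5 count was 25 when replicate 1 of stage 5 was dropped and 31 when replicate 2 was, against 22% and 21.6% of all genes. The same removals brought the stage 5 to 6 count to 4 and 3, against 2.40% and 1.95%. Dropping replicate 1 of stage 6 left 1 call at that last step, against 0.788%, and dropping its replicate 2 raised the count to 24, against 8.05%. The voom model on reads, chosen after seeing the data, called 43 genes at the first step, 6 at the second, 40 at the third and 5 at the last, against 8.52%, 1.22%, 29.0% and 5.60% of all genes. From stage 2 to stage 6, all 67 genes were called in every fit that was run.

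Read without a model, the libraries of consecutive stages were mostly apart. Every library of stage 2 lay above every library of stage 3 for 56 of the 67 genes, against 18.8% of all genes tested. The same held for 47 from stage 3 to 4, against 16.3%, for 61 from stage 4 to 5, against 42.3%, and for 55 from stage 5 to 6, against 33.2%. Stages 2 and 6 were apart for all 67, against 50.7%. Complete separation at all 4 steps was seen for 32 genes (47.8%), against 2.06% of all genes tested and 9.91% of the unsteady fallers. Another 24 genes (35.8%) were separated at 3 steps, nearly the share seen in the unsteady fallers (35.5%). The rule fixed the order of the means in advance, so these shares too are a description. Spipo4G0045300 (1224 bases, named after its values were seen) was among the tightest, with 12.9, 12.6 and 12.2 FPKM at stage 2, 8.77, 8.57 and 7.47 at stage 3, 6.51, 6.25 and 6.14 at stage 4, 4.88 and 4.56 at stage 5, and 2.96 and 3.03 at stage 6.

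Libraries that played no part in choosing genes gave a view that the rule fixes only in part. Each of the 13 libraries was left out in turn, the rule was applied to the other 12, and the genes found were looked up in the library left out. Between 35 and 98 genes were found, and their value in the left-out library lay on the falling side of the mean of each neighbouring stage for 81.0% to 100% of them. Among genes with at least 10 FPKM at stage 2, of which many rose, the share was 29.4% to 61.9%. The lowest share came from stage 3 replicate 3, with 68 of 84 genes in order, and the highest from stage 2 replicate 2 and stage 3 replicate 1, with 56 of 56 and 48 of 48. The means of the neighbouring stages had been used in choosing, so only the left-out value is independent. The rule also set the stage means at least 0.3 apart at each step. The median SD between replicates was 0.213 for the 67 genes. The gap to the 11341 genes, which need no such distance, therefore follows in part from the choice. Unsteady fallers were not looked up in this way.

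The size of the drop held less well than its direction in some left-out libraries. For stage 4 replicate 1, the median change from stage 3 was -0.36 in the libraries that chose the genes and -0.19 in the left-out library, and 29 of 98 genes dropped by 0.3 or more there. For stage 6 replicate 2 the median change from stage 5 was -0.62 in the choosing library and -0.22 in the one left out, with 28 of 87 genes at a drop of 0.3 or more. In contrast, stage 3 replicate 2 gave a median change of -0.55 from stage 2, against -0.44 in the choosing libraries, with 73 of 78 genes at 0.3 or more. In stage 6 replicate 1 the median change was -0.55 against -0.45, over 35 genes. Leaving out this library gave the fewest genes, 35 against 67, of which 30 were among the 67.

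**Figure D4:**
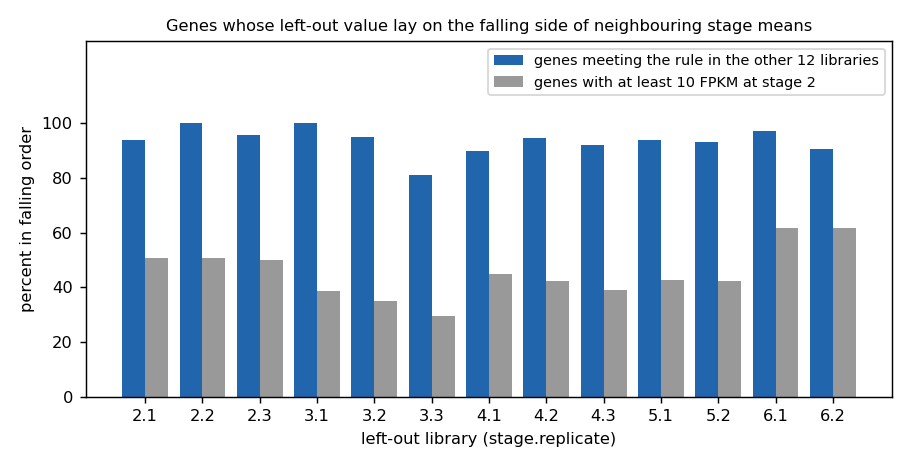
Percent of genes whose value in a left-out library lay below the mean of the stage before and above the mean of the stage after (1 neighbour only for stages 2 and 6), for genes that met the rule in the other 12 libraries and for genes with at least 10 FPKM at stage 2. Bars of the steadily falling genes lie between 81.0% and 100%, and the others between 29.4% and 61.9%. The rule sets the stage means of the first group apart, so part of this gap follows from the choice.

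Within stages, the 67 genes tended to move together from library to library. Deviations of log2(FPKM + 1) from the gene's stage mean averaged 0.135 in stage 4 replicate 1 and -0.135 in stage 4 replicate 3 (SD over genes 0.156 and 0.166), and 54 genes were above their stage mean in the first and 54 below it in the second. In stage 6 they averaged -0.159 in replicate 1 and 0.159 in replicate 2 (SD 0.169), with 60 genes lower in replicate 1. In stage 2 they averaged -0.092, 0.085 and 0.008 in replicates 1, 2 and 3. In stage 3 they averaged only 0.050, -0.034 and -0.016, with 43, 27 and 32 genes above their stage mean. In stage 5 they averaged -0.031 and 0.031, with 28 and 39 genes above. Over the 11341 genes with at least 10 FPKM at stage 2, no library had a mean deviation beyond 0.034 in either direction. The 2008 unsteady fallers deviated the same way in stage 6, by -0.125 and 0.125, and in stage 4 replicates 1 and 3, by 0.072 and -0.109. In stage 3 replicate 1 they averaged 0.090, further from 0 than the 67 genes.

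**Figure D5:**
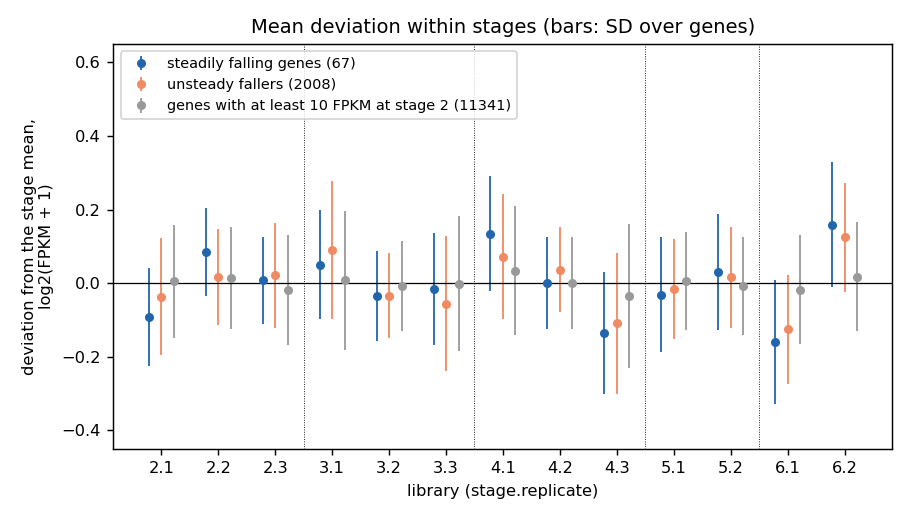
Mean deviation of log2(FPKM + 1) from the stage mean in each library (points; bars are the SD over genes) for the 67 steadily falling genes, the 2008 unsteady fallers and the 11341 genes with at least 10 FPKM at stage 2. The steadily falling genes stand furthest from 0 in stage 4 replicates 1 and 3 and in both stage 6 libraries.

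Over pairs of the 67 genes, the correlation of these deviations across the 13 libraries had a median of 0.33 (quartiles 0.07 and 0.57, 2211 pairs), against 0.24 over pairs of unsteady fallers and 0.02 over pairs of the 11341 genes. All pairs share the same 13 libraries and the scaling of each. The pairs most alike were Spipo15G0046300 with Spipo21G0004600 at 0.96, Spipo22G0021100 with Spipo30G0001600 at 0.95, and Spipo1G0079800 with Spipo4G0041300 at 0.95. They are the highest of 2211 pairs, so their values are extreme by choice. Spipo21G0004600 (642 bases) was at 119, 143 and 129.9 FPKM at stage 2, 27.5 and 41.5 at stage 5, and 20.4 and 29.5 at stage 6. Its partner Spipo15G0046300 (1623 bases) was at 42.9, 60.9 and 55.6 FPKM at stage 2, 15.7 and 24.8 at stage 5, and 11.8 and 17.7 at stage 6. At these stages both were high and low in the same libraries. At stage 3 the order was reversed, with 84.8, 83.7 and 80.6 FPKM for Spipo21G0004600 and 40.2, 41.2 and 41.4 for Spipo15G0046300. The lowest stage 4 library was replicate 2 for the former and replicate 3 for the latter. The spread between replicates, as median residual SD in log2(FPKM + 1), was 0.213 in the 67 genes. It was 0.157 over the 11341 genes, 0.182 over unsteady fallers and 0.180 over all 15608 tested genes. A wide spread is not particular to the 67 genes: it was 0.284 over the 195 steadily rising genes described at the end.

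The 67 gene IDs carried 23 of the 33 ID prefixes. The largest number was under Spipo4, 9 or 1.22% of its 735 genes at 10 FPKM or more at stage 2. The highest share was under Spipo26, 3 or 1.63% of 184. Over all prefixes the share was 0.591%. None lay under Spipo6, Spipo11 or Spipo7, with 448, 410 and 369 such genes. These shares were not tested. A few were neighbours in the list of gene IDs. For 3 of the 67 (4.48%) the next listed ID was also one of them, while the 67 make up 0.341% of listed IDs; 14.7% of the unsteady fallers were followed by another, at 10.2% of IDs. The pairs were Spipo15G0046300 with Spipo15G0046400, Spipo19G0005400 with Spipo19G0005500, and Spipo23G0024600 with Spipo23G0024700. Within a pair the coding lengths differed, with 1623 and 1434, 1386 and 2019, and 339 and 1284 bases. Deviations within stages correlated by 0.72 for the pair starting with Spipo19G0005400, 0.48 for that starting with Spipo23G0024600 and 0.21 for that starting with Spipo15G0046300. A further pair, Spipo26G0011700 and Spipo26G0011900, had 1 ID between them, which stayed below 0.5 FPKM on average at every stage. Spipo26G0011700 (813 bases) went from 64.1 ± 6.03 FPKM (SD, n = 3) to 20.6 ± 0.272 (SD, n = 2) and Spipo26G0011900 (207 bases) from 78.7 ± 11.0 to 21.1 ± 9.44, and their deviations correlated by -0.02. Overlapping genes and near-identical copies can share reads, and no annotation was used here to look for them. Other genes listed next to one of the 67 showed little of the pattern: over 93 of them with at least 10 FPKM at stage 2, the median change from stage 2 to 6 was -0.50, against -0.44 over all 11341.

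The drops after stage 3 depend in part on how libraries are scaled. FPKM is relative to the library total, and the median change of all tested genes was -0.28 from stage 2 to stage 6. With median ratio scaling, which sets that median near 0, the 67 genes still had lower means at every step, and their median changes were -0.45, -0.30, -0.36 and -0.40. A drop of 0.3 or more was then seen for all 67 genes at the first step, 34 at the second step, 40 at the third and 53 at the last. The rule was met by 23 genes under that scaling, of which 20 were among the 67. From stage 2 to stage 6 the median change of the 67 genes was -1.85 as deposited and -1.55 with that scaling.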

How the data were processed

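Total RNA of frond tissue was made into stranded messenger RNA libraries, per the labels' protocols. The authors deposited 1 table of FPKM values with 1 column per library. The submitters' processing notes name HTSeq 0.11.3, HISAT2 2.2.1, Picard 2.25.5, Trimmomatic 0.39 and CASAVA 1.8.2. Genome build, annotation and strand setting: not given in the sources used here. Without strand, antisense partners cannot be told apart.

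Steps between FPKM values of a gene gave whole reads (within 0.002) for 17445 genes, library totals and coding lengths in multiples of 3 bases. For genes with few reads the implied length can be too short.

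The rule was applied to stage means, and at most 300 genes would have been kept. limma 3.58.1 (R 4.3.3) was fitted to log2(FPKM + 1) with a mean per stage, a mean-variance trend and 8 residual degrees of freedom; genes with adjusted p under 0.05 were called. Changes called log2(mean FPKM + 1) come from stage means, and those of the fit from means of logs. The steps were tested on simulated data.

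The genes and sets were chosen with earlier results of these data known. Named genes were the 5 with the highest mean at stage 2, the largest total fall, the most even steps and the largest smallest step, the 6 with the largest fall among those without overlap, 3 on each side of the threshold, and the 3 most correlated pairs. Planned lists of pathway and cell type genes by product name could not be applied to bare IDs and were not run. Other scalings, pseudocounts of 0.1, thresholds, a replicate block, library weights and leaving out libraries were tried.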

Additional observations from a re-analysis of the deposited data

How the results depend on the processing

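The number of genes meeting the rule was 23 with median ratio scaling, 41 with quantile normalization, 10 with a smallest drop of 0.4 and 300, the most kept, with 0.2; leaving out 1 library gave 35 to 98. It stayed within 1.5 times of 67 with a pseudocount of 0.1, means of logs, no limits on single steps and a lowest mean of 5 or 20 FPKM. Of the 67 genes, 5 met the rule in all 13 runs without 1 library and 35 in at least 10. Genes called as falling from stage 2 to 3 (26) numbered 54 with library weights, 43 with voom on reads and 4 to 18 without 1 library; of all genes tested, 15.3%, 8.52% and 1.22% to 6.64% were called, against 6.64%. From stage 3 to 4 (4) there were 39 with library weights, 8 with a replicate block, 2 each with quantile normalization and with both stages alone, and 0 to 5 without 1 library; all genes: 13.2%, 1.46%, 0.871%, 0.192% and 0.122% to 1.36%, against 1.10%. The cause was not tested. From stage 4 to 5 (48) there were 23 with median ratio scaling, 29 with quantile normalization and 25 to 52 without 1 library; all genes: 18.4%, 24.1% and 21.6% to 29.4%, against 30.7%. From stage 5 to 6 (13) there were 7 with library weights, 5 with voom, 1 with both stages alone, 19 with a replicate block and 1 to 24 without 1 library; all genes: 5.32%, 5.60%, 1.88%, 8.89% and 0.788% to 8.05%, against 7.20%. Where 1 library of stages 5 or 6 was left out, the lone one was assumed to vary like the others. From stage 2 to 6 the count was 67 in each of these fits, with 34.9% to 46.2% of all genes called. Deviations of equally numbered libraries correlated by -0.24 to 0.37, and no label ties the numbers, so the replicate block is no pairing. Of 162 values of total change for 18 named genes under alternatives that could move it, 36 moved by more than the spread between replicates and none changed sign. Depth limits Spipo15G0006400, with 11 reads at stage 6.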

Other observations

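Steadily rising genes were more frequent than steadily falling ones under the same size of step. With a mean of at least 10 FPKM at stage 6 and a gain of at least 0.3 at each step, 195 genes were found, against 69 that met the falling rule without its limits on single steps. With median ratio scaling the numbers were 308 and 23. The 195 rising genes had median changes of 0.82, 0.57, 0.73 and 0.60 from stage 2 onward, and started from a median of 4.57 FPKM at stage 2. Near such low levels the scale of log2(FPKM + 1) understates changes. The difference between the 2 numbers was not tested.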
